A study of Mus musculus with 45 samples.

Results

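The genes described here are Srebf2 and 7 genes that its product is known to activate: Insig1, Hmgcs1, Idi1, Fdft1, Sqle, Cyp51 and Dhcr7. They were found by matching the mouse symbols to Ensembl identifiers, and all 8 were among the 54532 genes counted and the 13592 genes with a mean of at least 1 CPM (counts scaled to a common library size). They were followed in primary hippocampal neurons of newborn C57BL/6N mice, which had been exposed to AraC against dividing cells. Before the treatments, their B27 medium with rat serum had been replaced by a defined neuronal medium with insulin, whose listed components include no serum. Every group came from the same 5 culture preparations (1, 3, 6, 7 and 8), so that each of 9 conditions had 5 libraries, 45 in all. The control was untreated. The other groups received bicuculline (Bic, 50 µM), a GABA-A receptor antagonist that induces action potential firing, for 0.5, 1 or 2 h. In the short protocol (SP), tetrodotoxin (TTX, 1 µM), which silences firing, or TTX and NMDA (30 µM), which activates NMDA receptors directly, were added after 0.5 h of Bic for 0.5 h more. In the long protocol (LP), TTX, TTX/NMDA or TBOA (50 µM), a blocker of glutamate uptake, was added after 1 h of Bic for 1 h more. Bic stayed present in all of these. The passive effect is TTX against Bic of the same duration, the active effect TTX/NMDA against TTX, the total effect TTX/NMDA against Bic, and spillover TBOA against 2 h Bic. These are cultures of 1 strain and developmental stage after brief treatments, and they hold glia beside neurons, so in bulk RNA a smaller number of cells of a type and less RNA per cell cannot be told apart.

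SREBP2, the protein encoded by Srebf2, is made as a membrane protein of the endoplasmic reticulum. When sterols are scarce, its escort SCAP carries it to the Golgi, where proteases release the part that enters the nucleus and switches on the genes of cholesterol synthesis and uptake, Srebf2 among them. When sterols are plentiful, INSIG proteins hold SCAP and SREBP2 back. Brain cholesterol is made locally, by neurons and glia, because the blood-brain barrier keeps lipoproteins out. Messenger RNA levels do not measure the cleavage of SREBP2 or the amount of any sterol.

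By CPM per kilobase of exon (RPKM, mean over the 45 libraries), the most abundant member was Hmgcs1, which makes HMG-CoA, at 382. Sqle, the squalene epoxidase, followed at 106.9 RPKM, and Cyp51, the lanosterol demethylase, at 87.6. Fdft1, the squalene synthase, stood at 67.0 RPKM, Insig1 at 66.6 and Srebf2 at 66.2. Dhcr7, which catalyses a last step of cholesterol synthesis, reached 27.7, and Idi1, the isopentenyl diphosphate isomerase, 8.14. Each member had between 305 and 141272 reads per library. In GRCm38, Srebf2 (ENSMUSG00000022463) lies on the plus strand at chr15:82147181-82205379 and Sqle on the same chromosome at chr15:59315077-59331192. Hmgcs1 (chr13:119690379-119708260) and Idi1 (chr13:8885501-8892451) share chromosome 13, Insig1 (chr5:28071363-28078662) and Cyp51 (chr5:4081145-4104746, minus strand) share chromosome 5, Fdft1 is at chr14:63145150-63179578 on the minus strand, and Dhcr7 is at chr7:143823145-143848410. Each interval is the whole gene, and reads in all of its exons were counted together.

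Promoter windows from 250 bases before to 50 bases after an annotated start, taken from RefSeq (GRCm38.p6), were at hand for 6 of the 8 members, all but Sqle and Fdft1. The windows of 4 members that fell in the LP active effect are printed 5′ to 3′ on the strand of the gene, because SREBP2 is known to act at promoters. Capitals mark the sterol element letters TCACNNCA (in Hmgcs1 the longer TCACNCCAC) and the CCAAT box, whose partner NF-Y is known to act with SREBP2, on either strand, where CCAAT reads as ATTGG.
Srebf2 (chr15:82147019-82147318, plus strand): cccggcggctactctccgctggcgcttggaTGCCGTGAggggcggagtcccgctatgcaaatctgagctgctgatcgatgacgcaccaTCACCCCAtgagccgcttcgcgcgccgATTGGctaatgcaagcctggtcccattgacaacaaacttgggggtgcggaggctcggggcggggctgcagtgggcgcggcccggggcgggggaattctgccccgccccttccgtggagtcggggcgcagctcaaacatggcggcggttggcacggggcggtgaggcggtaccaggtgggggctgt
Hmgcs1 (chr13:119690101-119690400, plus strand): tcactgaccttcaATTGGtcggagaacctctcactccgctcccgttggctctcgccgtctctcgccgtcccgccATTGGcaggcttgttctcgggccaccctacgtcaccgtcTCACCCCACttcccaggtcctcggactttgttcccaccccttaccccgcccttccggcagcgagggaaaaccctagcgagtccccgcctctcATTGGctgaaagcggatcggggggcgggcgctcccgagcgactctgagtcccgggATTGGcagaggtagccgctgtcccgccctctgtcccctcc
Idi1 (chr13:8885356-8885655, plus strand): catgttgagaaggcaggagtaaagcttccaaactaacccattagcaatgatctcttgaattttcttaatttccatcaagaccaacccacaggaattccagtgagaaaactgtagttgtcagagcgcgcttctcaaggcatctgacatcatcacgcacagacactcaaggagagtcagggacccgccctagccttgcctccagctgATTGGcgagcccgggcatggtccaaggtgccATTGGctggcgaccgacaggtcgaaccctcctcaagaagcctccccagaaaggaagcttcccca
Cyp51 (chr5:4104648-4104947, minus strand): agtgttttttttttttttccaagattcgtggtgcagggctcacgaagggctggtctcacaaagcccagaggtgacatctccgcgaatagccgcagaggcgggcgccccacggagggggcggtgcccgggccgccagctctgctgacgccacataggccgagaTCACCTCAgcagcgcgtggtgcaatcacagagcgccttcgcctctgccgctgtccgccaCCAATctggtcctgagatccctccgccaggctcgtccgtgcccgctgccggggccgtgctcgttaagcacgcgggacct

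The stricter element TCACNCCAC, searched on both strands, was present in a window of 1.44% of 27025 mouse genes and, among the 6 members, in Hmgcs1 alone, 137 bases before its start. The looser letters TCACNNCA, which include every match of the stricter ones and were chosen after the windows had been read, were present in a window of 15.7% of all genes and of Srebf2, Hmgcs1, Cyp51 and Dhcr7. In Srebf2 they began 162 bases before the start, and on the opposite strand 220 bases before it, and in Cyp51 88 bases before it. CCAAT was found in a window of all 6 members and of 41.1% of all genes, with 4 copies in Hmgcs1 and 2 in Idi1. The GC box GGGCGG was likewise found in a window of all 6 and of 38.2% of all genes. By window, of which Dhcr7 has 3, CCAAT was in 6 of 8 (37.4% of all 32851 windows) and GGGCGG in 7 of 8 (35.7%). CACGTG, the E-box that SREBPs can also bind, was in a window of Insig1 and Dhcr7 and of 8.09% of all genes. The cAMP response element TGACGTCA, the site of the activity-regulated factor CREB, was in a window of 2.03% of all genes and of no member. These are matches of letters, not sites of measured binding.

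The libraries held 11316580 to 81129276 counts on genes (median 26239614). Firing had its usual transcriptional mark: the activity-induced genes Fos, Npas4, Arc and Bdnf were higher after 2 h Bic by 5.39, 5.54, 5.23 and 1.5 on the log2 scale. All 8 neuron markers were expressed, with a summed level of 6437 to 8558 CPM in every library, and the 8 astrocyte markers summed to 968 to 2277 CPM. Markers that define other cells were near 0, with a median of 0 CPM for Cldn5 (endothelium), 0.12 for Sox10, 0.23 for Mog (both oligodendrocytes) and 0.13 for P2ry12 (microglia). In 1 library, SP TTX of preparation 6, all 8 members and all 16 other sterol synthesis enzymes examined were the lowest of the 5 SP TTX libraries, and the comparisons that use SP TTX are given with and without it.

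Over the 9 conditions, LP TTX/NMDA had the lowest mean for every member but Cyp51, which was lowest in SP TTX/NMDA. The highest mean exceeded the lowest by 1.72-fold for Idi1, 1.55-fold for Srebf2, 1.49-fold for Cyp51, 1.43-fold for Sqle and 1.38-fold for Hmgcs1. For Insig1, Dhcr7 and Fdft1 it did so by only 1.23-fold, 1.21-fold and 1.12-fold. When the conditions were ordered by mean level, neighbours overlapped in their libraries in all but 2 instances. Both exceptions were the step from SP TTX/NMDA down to LP TTX/NMDA, in Srebf2 and in Sqle.

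**Figure D1:**
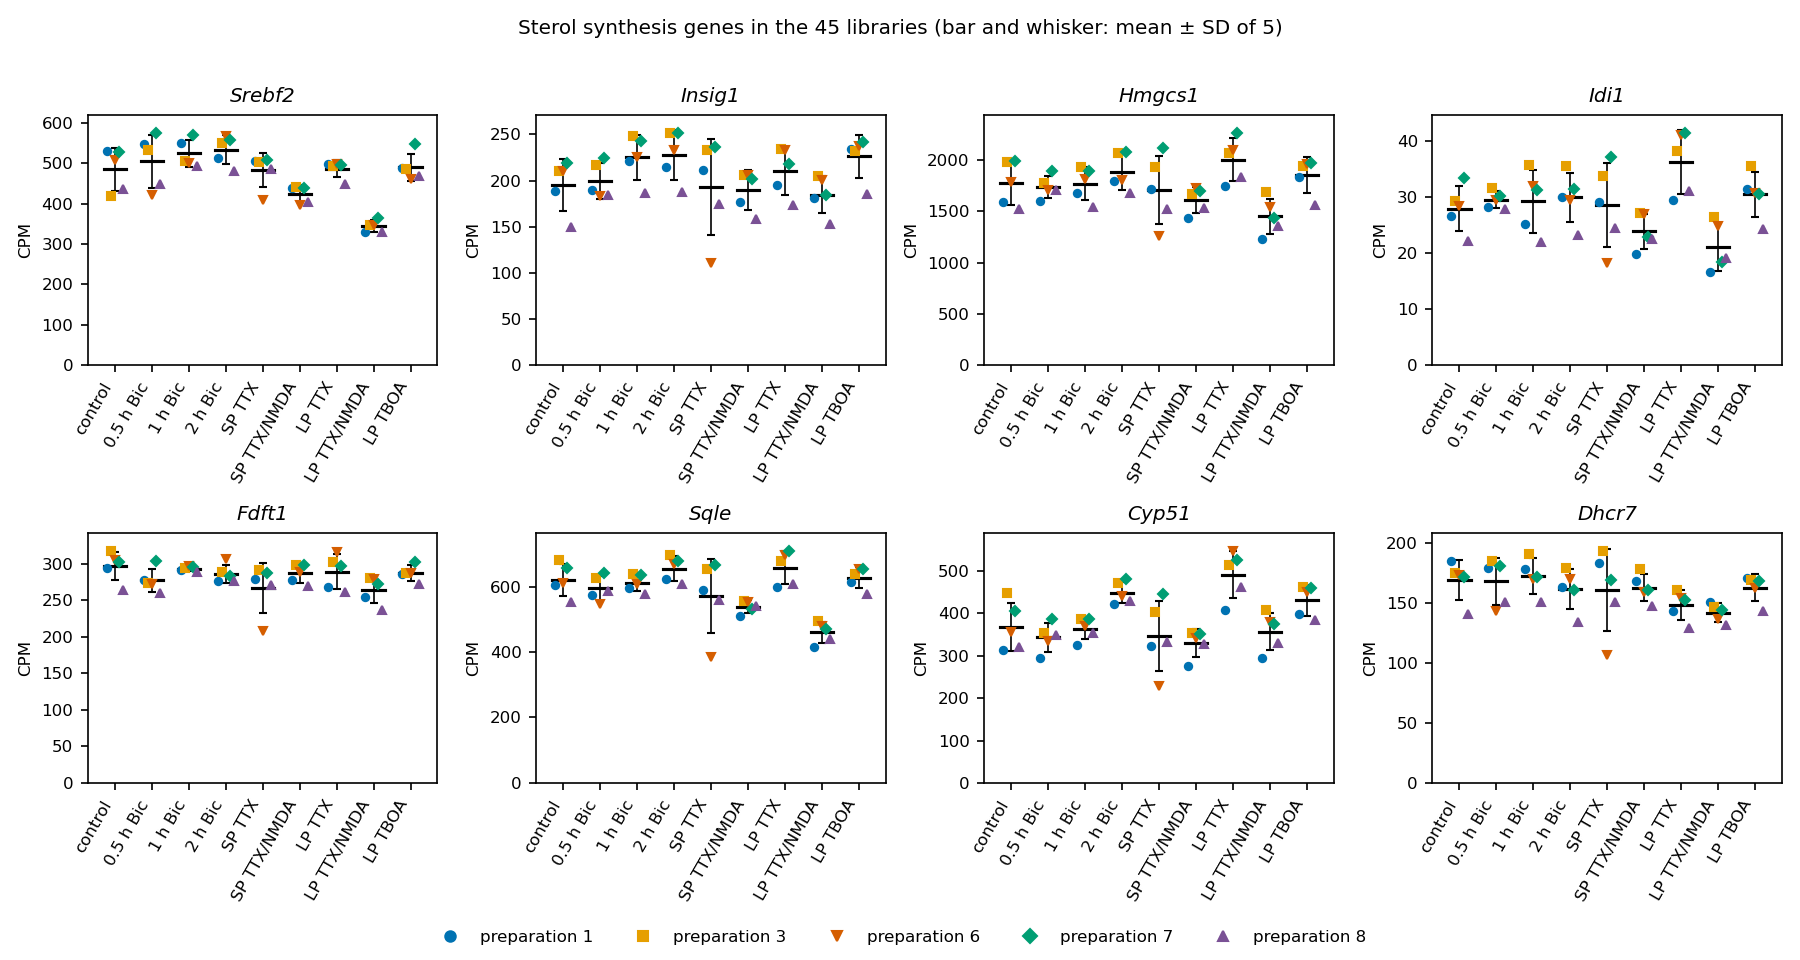
Level of each of the 8 genes in CPM (TMM-scaled, linear axes from 0) in the 5 libraries of each of the 9 conditions, with a bar at the mean and an error bar of 1 SD. Srebf2 and Sqle are lowest in LP TTX/NMDA, at 330.0 to 366 and 416 to 495 CPM, without overlap with any other condition but SP TTX, in which the preparation 6 library reads 386 CPM for Sqle.

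In the LP, Srebf2 and most of the target genes followed here were lower with NMDA. The active effect asks what NMDA receptor activation adds once firing has been silenced. Of the 8 members, 5 were lower in TTX/NMDA than in TTX by the quasi-likelihood test of edgeR, with p-values adjusted by Benjamini-Hochberg over all 32852 genes tested, against 11.8% of all genes called lower. These were Srebf2, Hmgcs1, Idi1, Sqle and Cyp51. No member was higher. The median log2 fold change of the members was −0.47, against −0.01 for the 13592 expressed genes.

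Srebf2 itself had 499.7, 494, 498, 497 and 448 CPM in LP TTX of preparations 1, 3, 6, 7 and 8. With NMDA it had 330.0, 346, 348, 366 and 330.4 CPM (344 ± 14.8, SD, n = 5). Every TTX/NMDA library lay below every TTX library. The log2 fold change was −0.51 (SE 0.063, edgeR adjusted p = 3e-07), a loss of 29.8%.

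Hmgcs1, whose enzyme opens the mevalonate pathway, had 1741, 2065, 2099.9, 2259.8 and 1839 CPM with TTX and 1234, 1685, 1537, 1430.5 and 1359.8 CPM with TTX/NMDA. The groups did not overlap, and the log2 fold change was −0.47 (SE 0.080, edgeR adjusted p = 3.84e-05). Idi1, which makes the isoprene unit that is built into farnesyl diphosphate, fell most. It had 29.4, 38.2, 41.1, 41.4 and 31.1 CPM with TTX, and 16.6, 26.5, 24.8, 18.4 and 19.05 CPM with TTX/NMDA, again without overlap. The log2 fold change was −0.80 (SE 0.111, edgeR adjusted p = 2.02e-06), a loss of 42.5%.

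Sqle, which commits squalene to sterols, had 599.6, 678, 696, 708 and 607 CPM with TTX and 416, 495, 480.1, 469 and 439.6 CPM with TTX/NMDA. Its log2 fold change was −0.52 (SE 0.069, edgeR adjusted p = 8.48e-07). Cyp51, the first enzyme after lanosterol in the route to cholesterol, had 409, 514, 547, 526 and 463 CPM with TTX and 294, 407, 379, 374 and 331 CPM with TTX/NMDA. Its log2 fold change was −0.47 (SE 0.083, edgeR adjusted p = 7.07e-05). Both genes were lower in 5 of 5 preparations, and neither had overlapping groups. In all, 5 members had every TTX/NMDA library below every TTX library, as did 9.11% of all genes tested.

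The remaining 3 members did not pass the test. Insig1, the sterol-dependent anchor of SCAP, had 195, 234, 233, 218 and 174 CPM with TTX and 181, 205, 200.2, 185 and 153 CPM with TTX/NMDA (log2 fold change −0.20, edgeR adjusted p = 0.0828). For Fdft1, the squalene synthase, the log2 fold change was −0.14 (adjusted p = 0.176), and for Dhcr7 −0.07 (adjusted p = 0.483). With the preparation as a block, Insig1 (adjusted p = 0.00184) and Fdft1 (adjusted p = 0.029) were also called lower, so that 7 members were, against 28.5% of all genes in that fit.

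Against 2 h Bic, the LP total effect, 7 members were lower in TTX/NMDA, all but Fdft1, against 11.1% of all genes called lower. Srebf2 went from 513, 551, 568, 557 and 481 CPM in 2 h Bic to the 330.0 to 366 CPM of TTX/NMDA, a log2 fold change of −0.65 (SE 0.068, edgeR adjusted p = 3.88e-09) and a loss of 36.2%. For Sqle, which had 623, 696, 669, 678 and 608 CPM in 2 h Bic, the log2 fold change was −0.52 (adjusted p = 2.82e-07). In these genes and in Cyp51 the groups did not overlap, as in 8.45% of all genes tested. For Idi1 the log2 fold change was −0.53 (adjusted p = 0.000307), for Hmgcs1 −0.39 (adjusted p = 0.000213), for Cyp51 −0.34 (adjusted p = 0.000681) and for Insig1 −0.31 (adjusted p = 0.00341). Dhcr7 passed narrowly, at −0.20 (adjusted p = 0.0443), and did not pass without preparation 1, 3, 6 or 7 or with the filterByExpr low-count filter. For Fdft1 the value was −0.13 (adjusted p = 0.199).

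Silencing of firing by TTX was followed by no change of a member that passed the test in the LP. The log2 fold changes of the passive effect lay between −0.14 and 0.27, and no member was called by edgeR, where 2 had an unadjusted p under 0.05 and 4.65% of all genes were called in either direction. Idi1 was the highest of these values. With the preparation as a block, 4 members passed: Idi1 was higher by 0.27 (adjusted p = 0.00329; 15.7% of all genes higher), and Srebf2 (−0.15, adjusted p = 0.00616), Insig1 (−0.13, adjusted p = 0.0191) and Dhcr7 (−0.14, adjusted p = 0.00925) were lower (16.2% of all genes lower). DESeq2 called none.

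Relative to untreated neurons, LP TTX/NMDA left 5 members lower, against 8.55% of all genes: Srebf2 (−0.50), Sqle (−0.44), Idi1 (−0.42), Hmgcs1 (−0.30) and Dhcr7 (−0.26). The count was 2 without preparation 7 and 3 without preparation 1. The block added Fdft1, making 6 against 22.8% of all genes. LP TTX left Idi1 (0.36, edgeR adjusted p = 0.0213) and Cyp51 (0.40, adjusted p = 0.00322) higher than in the control, against 4.33% of all genes. The block added Hmgcs1 as higher (adjusted p = 0.0264; 13.3% of all genes) and Dhcr7 as lower (adjusted p = 0.0144; 10.8%). Without preparation 6 only 1 of the members was called higher in LP TTX.

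**Figure D2:**
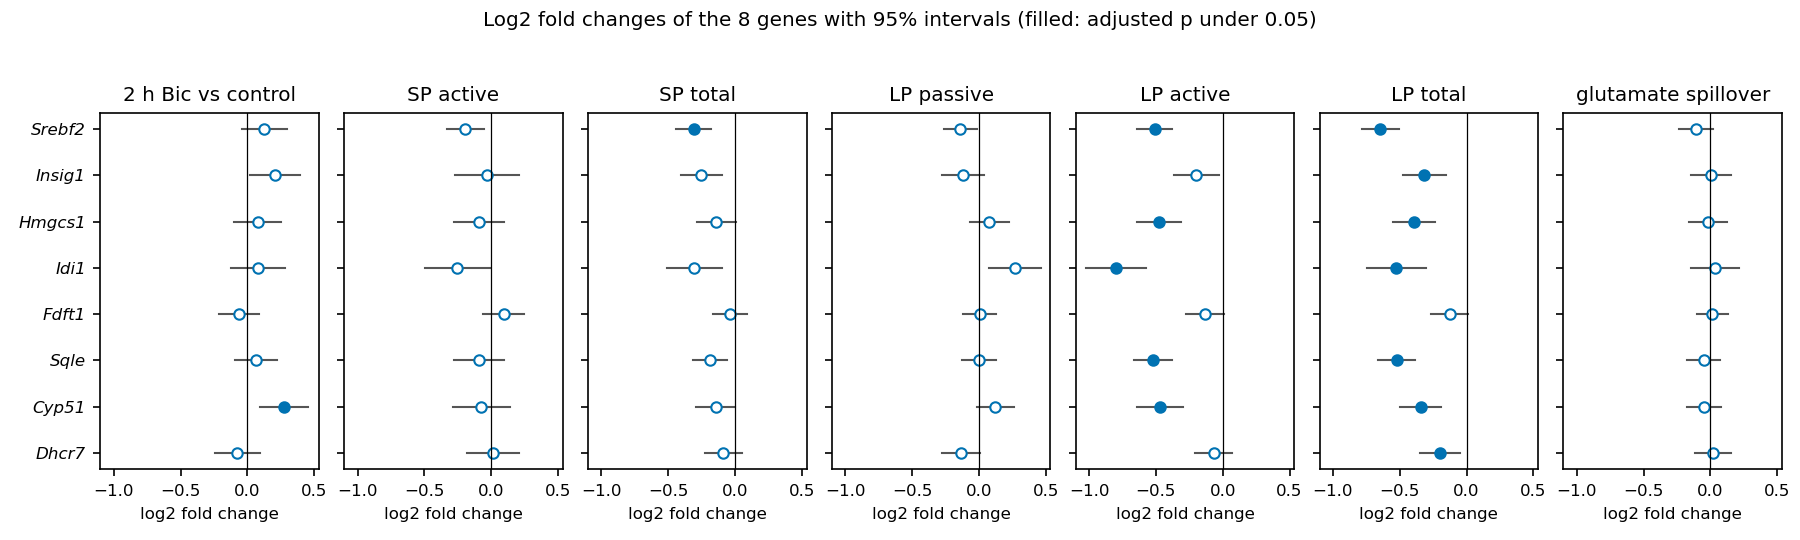
Log2 fold change of each of the 8 genes in 7 comparisons (1 panel each), with 95% confidence intervals from edgeR's quasi-likelihood fit and filled points for an adjusted p under 0.05. In the LP active and total effects the values run from −0.80 (Idi1) to −0.07 (Dhcr7) and from −0.65 (Srebf2) to −0.13 (Fdft1), while the spillover values lie between −0.11 and 0.04.

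In the SP, which ends 0.5 h after NMDA was added, Srebf2 was the only member called by edgeR without a block. In the total effect it had 551, 507, 502, 571 and 495 CPM with 1 h Bic and 438, 442, 398, 439 and 405 CPM with TTX/NMDA. The groups did not overlap, and the log2 fold change was −0.31 (SE 0.065, edgeR adjusted p = 0.00203). No other member was called, against 3.41% of all genes called lower. The block called 6 lower, against 15.6% of all genes: Srebf2, Insig1 (−0.26, adjusted p = 0.000429), Idi1 (adjusted p = 0.00305), Sqle (adjusted p = 0.00338), Cyp51 (adjusted p = 0.0124) and Hmgcs1 (adjusted p = 0.0273). DESeq2 called 2, and the count was 4 without preparation 8 and 2 without preparation 6.

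In the SP active effect no member was called by edgeR or DESeq2, where 2 had an unadjusted p under 0.05 and 4.28% of all genes were called in either direction. Srebf2 came nearest, at −0.19 (adjusted p = 0.132), and was lower with the preparation as a block (adjusted p = 0.0329), against 10.3% of all genes. Its SP TTX values were 506, 503, 409, 509.7 and 486 CPM, in which preparation 6 stood below the other 4. Without that library, which was left out only once its values were known, Srebf2 (−0.25, adjusted p = 0.0188) and Idi1 (−0.38, adjusted p = 0.0112) were lower, against 3.2% of all genes. The SP passive effect called no member (0.268% of all genes in either direction), at values between −0.23 and −0.06, and 1 had an unadjusted p under 0.05. Without the SP TTX library of preparation 6 the values lay between −0.08 and 0.08, those of Hmgcs1, Idi1, Sqle, Cyp51 and Dhcr7 were above 0, Insig1 stood at −0.08, and again no member was called. Against the control, SP TTX called none (0.618% of all genes) and none had an unadjusted p under 0.05, at values between −0.15 and 0.01, or between −0.07 and 0.15 and with none called without that library. SP TTX/NMDA called none by edgeR (1.27% of all genes), with 3 at an unadjusted p under 0.05 and 1 called by DESeq2, and the block called Sqle lower (adjusted p = 0.0292; 5.56% of all genes).

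The difference between the LP and SP active effects was tested directly. No member was called by edgeR (2.57% of all genes in either direction), although 6 had an unadjusted p under 0.05 and the median difference of the members was −0.34. The lowest adjusted p-values were those of Srebf2, with a difference of −0.30 (adjusted p = 0.0589), and Sqle, with −0.42 (adjusted p = 0.0637). DESeq2 called 1 member. The block called 4 lower in the LP, against 15.1% of all genes: Srebf2 (adjusted p = 0.0046), Sqle (adjusted p = 0.0214), Hmgcs1 (adjusted p = 0.0292) and Idi1 (adjusted p = 0.0451). Without the SP TTX library of preparation 6, which enters this difference, the values for Srebf2 and Sqle were −0.25 (adjusted p = 0.11) and −0.31 (adjusted p = 0.071). For the difference between the LP and SP passive effects edgeR called no member (0.256% of all genes), with none at an unadjusted p under 0.05. The values lay between −0.03 and 0.33, and without the SP TTX library of preparation 6 between −0.15 and 0.20, with none called.

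With Bic alone, 1 member passed the test. Cyp51 had 314, 447, 356, 405 and 319.7 CPM in the control, 325, 386, 371, 386 and 353 CPM after 1 h Bic and 423, 471, 441, 480.4 and 429 CPM after 2 h Bic. It was higher after 2 h than after 1 h without overlap, by 0.29 (SE 0.063, edgeR adjusted p = 0.00196), where 2.53% of all genes were higher. Against the control it was higher by 0.27 (SE 0.087, adjusted p = 0.0402) in 5 of 5 preparations, where 4.24% of all genes were higher. That call was lost without preparation 1, 6, 7 or 8, and both calls were lost in a fit over all 45 libraries. The block also called Insig1 higher after 2 h (0.22, adjusted p = 0.00636; 14.4% of all genes), Sqle higher at 2 h than at 1 h (adjusted p = 0.0483; 11% of all genes) and Insig1 higher after 1 h (0.21, adjusted p = 0.0351; 2.92% of all genes).

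Srebf2 had 532, 420.4, 509, 529 and 436 CPM in the control and was not called at any time of Bic. After 0.5 h no member was called (0.289% of all genes in either direction), and none had an unadjusted p under 0.05. After 1 h none was called (1.16%), with 1 at an unadjusted p under 0.05, and between 0.5 and 1 h none was (0.677%), again with 1. DESeq2 called none in these comparisons.

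With glutamate uptake blocked, the log2 fold changes of the members against 2 h Bic lay between −0.11 and 0.04. Srebf2 had 488, 487, 462, 548 and 469 CPM with TBOA, and its log2 fold change was −0.11 (95% confidence interval −0.24 to 0.02). In spillover, no member was called by edgeR or DESeq2 and none had an unadjusted p under 0.05, against 0.602% of all genes called in either direction. Against LP TTX none was called by edgeR (4.26%), with 3 at an unadjusted p under 0.05, and the block called Dhcr7 higher (0.16, adjusted p = 0.045; 3.5% of all genes) and Cyp51 lower (−0.17, adjusted p = 0.0406; 8.74%). Against the control none was called by edgeR (6.9%), with 2 at an unadjusted p under 0.05, and the block called Insig1 (adjusted p = 0.022) and Cyp51 (adjusted p = 0.0242) higher (7.87%).

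The agents were also compared at the same time point. TTX/NMDA was lower than TBOA in 7 members, all but Fdft1, against 7.99% of all genes, with Srebf2 at −0.52 (edgeR adjusted p = 1.18e-06) and Sqle at −0.45 (adjusted p = 9.92e-06). Dhcr7 did not pass without preparation 1, 3, 6 or 7, nor Cyp51 without preparation 1 (adjusted p = 0.0541), so that 5 to 7 members were called when each preparation was left out. A fit over all 45 libraries called 4. The block called all 8, against 22.4% of all genes. TTX/NMDA and TBOA libraries also differed in whether firing was silenced.

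The rest of the pathway was read from lists of genes. The counts are to be read against the shares of all genes, which were 11.8% lower and 11.6% higher in the LP active effect and 11.1% lower and 11.7% higher in the LP total effect. Of 16 other sterol synthesis enzymes, 6 (37.5%) fell in the LP active effect and 7 (43.8%) in the total effect, and none rose, with medians of −0.16 and −0.22. Lss, the lanosterol synthase, fell by 0.52 in the active effect (SE 0.11, edgeR adjusted p = 0.000448) and by 0.58 in the total effect (adjusted p = 8.21e-05). Hsd17b7, a ketosteroid reductase of the pathway, fell by 0.48 and 0.37, and Sc5d, a sterol desaturase, by 0.42 and 0.24. Lbr, which also reduces sterols, fell by 0.50 in the active effect, and Mvk, the mevalonate kinase, by 0.38 in the total effect. Of the 16 enzymes, 1 rose after 2 h Bic against control (6.25%, near the 4.24% of all genes) and none fell, and 2 fell (12.5%, against 3.41% of all genes) and none rose in the SP total effect. In the LP passive effect Lbr, which lies in the nuclear membrane, was higher (0.53), and in spillover no enzyme passed.

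The genes that control SREBPs did not move as 1 group. In the LP active effect, 1 of 9 rose (11.1%, near the 11.6% of all genes) and 3 fell (33.3%, against 11.8%). Srebf1, which encodes the related factor of fatty acid synthesis, had 21.5 to 36.2 CPM with LP TTX and 40.2 to 66.3 CPM with TTX/NMDA, without overlap, and rose by 0.80 (SE 0.14, edgeR adjusted p = 5.2e-05), while Srebf2 fell. Fbxw7, a ubiquitin ligase component for nuclear SREBPs, fell by 0.38, Mbtps2, the site-2 protease, by 0.31, and Rnf139, a ligase of the endoplasmic reticulum, by 0.23. In the total effect Srebf1 rose by 0.59 (11.7% of all genes rose), and Scap fell by 0.27 and Fbxw7 by 0.25. Insig2 was not called in either (0.02 and 0.07). After 2 h Bic against control, Rnf139 fell by 0.53, Rnf145 by 0.40 and Mbtps1, the site-1 protease, by 0.35, where 4.78% of all genes fell, and Fbxw7 rose by 0.30. In the LP passive effect Scap was lower (−0.20) and Rnf139 higher (0.33). Mir33, the microRNA of an intron of Srebf2, had 2 reads in all, in 2 libraries.

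Genes of cholesterol uptake and transport moved both ways. In the LP active effect, 4 of 11 fell and 4 rose (36.4% each, against 11.8% and 11.6% of all genes). Stard4, a sterol carrier, fell by 0.93 (SE 0.12, edgeR adjusted p = 7.15e-07), from 244 to 438 CPM with TTX to 139.8 to 219.5 CPM with TTX/NMDA. Vldlr fell by 0.53 and Lrp8, the other receptor of reelin and apolipoprotein E, by 0.42. The genes that rose included Npc1 (0.57), Mylip (0.44) and Lipa (0.43). NPC1 and the lipase encoded by Lipa free cholesterol from lysosomes, and the ligase encoded by Mylip marks lipoprotein receptors for degradation. In the total effect 6 fell and 4 rose, with Stard4 at −0.78, Lrp8 at −0.42 and Npc1 at 0.55. In the SP total effect 3 were lower, against 3.41% of all genes, among them Stard4 (−0.41) and Lrp8 (−0.28), and none higher. After 2 h Bic against control Lrp1 rose by 0.43 and Mylip fell by 0.39, and in the LP passive effect Vldlr was higher (0.26).

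Of 11 genes of cholesterol efflux, oxysterols and storage, 4 rose (36.4%, against 11.6% of all genes) and 1 fell in the LP active effect, and 2 rose and 1 fell in the total effect (18.2% and 9.09%, against 11.7% and 11.1%). Abca1, the exporter that loads apolipoproteins, rose by 0.94 (adjusted p = 2.46e-05) and 0.96 (adjusted p = 1.67e-06), and Apoe, mainly an astrocyte product, by 0.85 and 0.70. Ch25h, the cholesterol 25-hydroxylase, rose by 0.89 in the active effect from a mean of 0.326 CPM, and was lower in the passive effect (−1.23). Abcg4, a neuronal exporter, fell by 0.20 and 0.45. Cyp46a1, the neuronal 24-hydroxylase through which cholesterol leaves the brain, was not called in the active (0.00) or the total effect (−0.17, adjusted p = 0.0593). Nothing in this list passed after 2 h Bic or in the SP total effect.

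Fatty acid genes that SREBPs also activate followed the sterol enzymes in part. Of 15, 6 fell and 3 rose in the LP active effect, against 11.8% and 11.6% of all genes, and 6 fell and 1 rose in the total effect, against 11.1% and 11.7%. Fasn, the fatty acid synthase, fell by 0.62 and 0.69, Elovl6 by 0.54 and 0.42, Acly by 0.52 and 0.61, and Fads2 by 0.39 and 0.51. Acacb, at under 2 CPM, rose by 0.75 in the active effect, and Mid1ip1 rose by 0.33 in the total effect. In the SP total effect Fasn (−0.42), Fads2 (−0.32), Acly (−0.30) and Acaca (−0.27) were lower, against 3.41% of all genes. After 2 h Bic only Elovl5 passed, higher by 0.36, where 4.24% of all genes were higher. In the isoprenoid branch, which uses farnesyl diphosphate for other lipids, 3 of 9 fell and 1 rose in the active effect, against 11.8% and 11.6% of all genes (Nus1 −0.34, Dhdds −0.26, Ggps1 −0.24), and 2 fell and 3 rose in the total effect (Dhdds −0.33, Pdss1 0.35, Pggt1b 0.29). After 2 h Bic Ggps1 fell by 0.26, and in the LP passive effect Ggps1 (0.28) and Nus1 (0.24) were higher. In spillover no gene of any of these lipid lists passed.

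**Figure D3:**
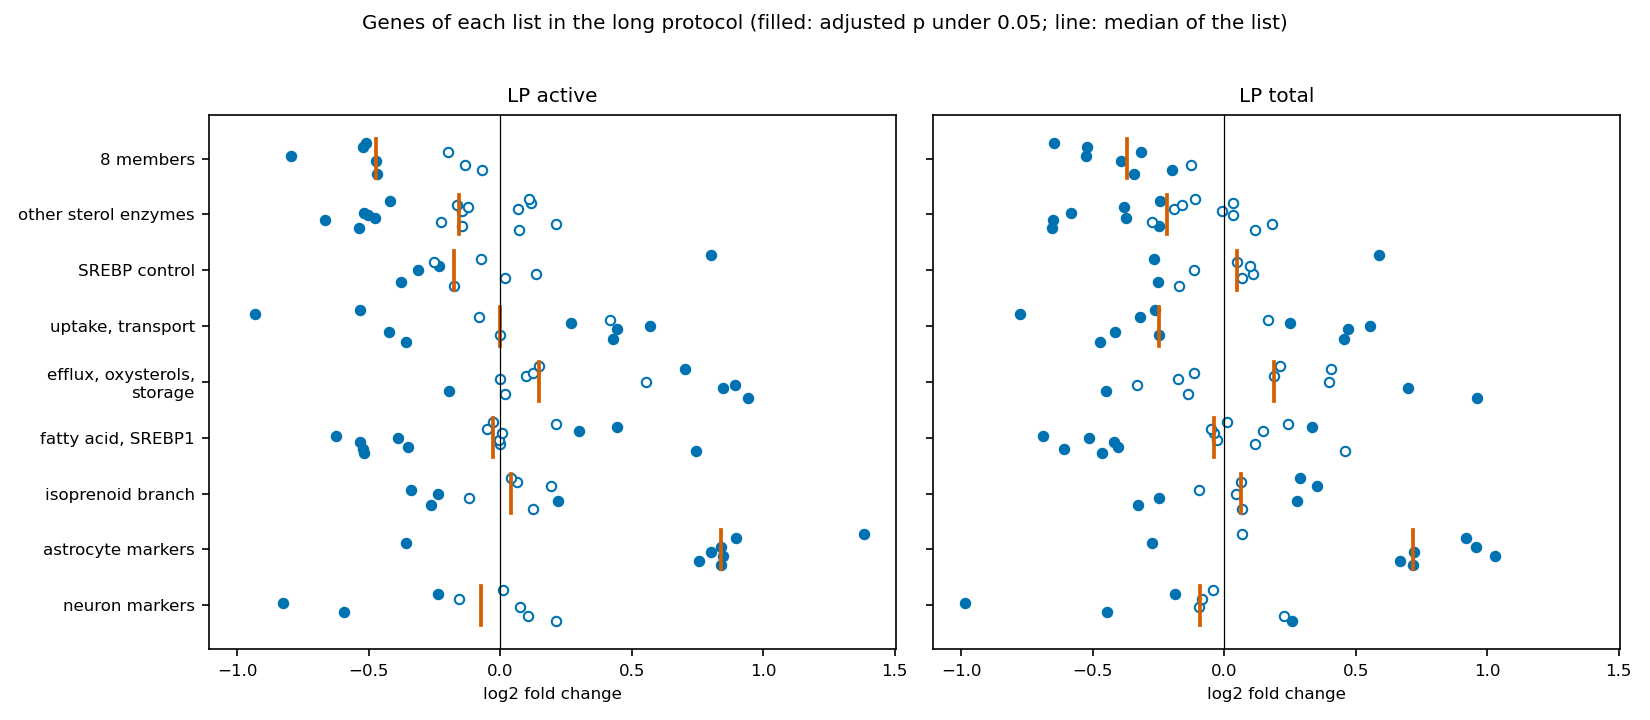
Log2 fold change of every gene of each list in the LP active and LP total effects, on a shared axis, with filled points for an edgeR adjusted p under 0.05 and a bar at the median. The 8 members lie below 0 in both panels, with medians of −0.47 and −0.37, and the lists of uptake and of efflux have called genes on both sides.

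Markers of cell types moved in the same LP comparison. In the active effect, where 11.6% of all genes rose and 11.8% fell, 7 of 8 astrocyte markers rose and 1, the glutamate transporter Slc1a2, fell. Their summed level was 1070 to 1625 CPM (median 1275) with LP TTX and 1289 to 2277 CPM (median 1648) with TTX/NMDA. Of 8 neuron markers none rose and Map2, Syt1 and Slc17a7 fell, with sums of 7676 to 8558 CPM and 6674 to 7263 CPM. For oligodendrocyte lineage markers 5 of 8 rose (sums of 101 to 168 and 159 to 313 CPM), for microglia 3 of 8 (sums of 7.23 to 9.998 and 9.12 to 13 CPM), and for vascular cells and fibroblasts 5 of 7 (sums of 67.4 to 144 and 87.1 to 208 CPM). In the total effect, where 11.7% of all genes rose and 11.1% fell, 6 astrocyte markers rose and 1 fell, and 1 neuron marker rose and 3 fell. The part of these shifts in the fall of the members was not tested.

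Most pairs of members varied together over the 45 libraries, with the differences between conditions included. After centring within each preparation, the correlation of log2 CPM between pairs of members ran from 0.12 to 0.94, with a median of 0.68 over 28 pairs and 45 libraries, which share their preparations and treatments. Without the SP TTX library of preparation 6, it ran from −0.26 to 0.94, with a median of 0.63. Among the 10 genes whose profile was most like the mean of the members, by Pearson's r over the 45 libraries and given as a description, were Stard4 (0.96), Acly (0.95), Acss2 (0.95), Lss (0.92), Hsd17b7 (0.88), Elovl6 (0.88), Rdh11 (0.88), Cacna2d3 (0.88) and Gpr176 (0.87). Without the centring, r was 0.46 for Cacna2d3 and 0.48 for Gpr176. Of the 10, 7 were in the lists of lipid genes described above. Without that library, 4 of the 10 were again among the 10 most like genes, and 8 sterol enzymes among the first 100 became 2.

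That library is the largest single departure of the members. In SP TTX of preparation 6, Sqle had 386 CPM against 560 to 665 in the other 4, Insig1 had 111 against 174 to 236, Hmgcs1 1258 against 1523 to 2114 and Cyp51 228 against 323 to 445. The median log2 ratio to the median of the condition was −0.58 for the members and −0.63 for the other 16 sterol enzymes. In the other 44 libraries these medians lay between −0.23 and 0.17 and between −0.37 and 0.26. Of the fatty acid genes 12 of 15 were the lowest of the 5, and of the expressed uptake genes 7 of 10. Of all 13592 expressed genes 18.7% were the lowest there and 29.5% the highest, and the residual SD of the library was 0.190 on the log2 scale, against a median of 0.123 over all libraries and 0.225 in the control of preparation 3, the largest. No label sets this library apart.

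**Figure D4:**
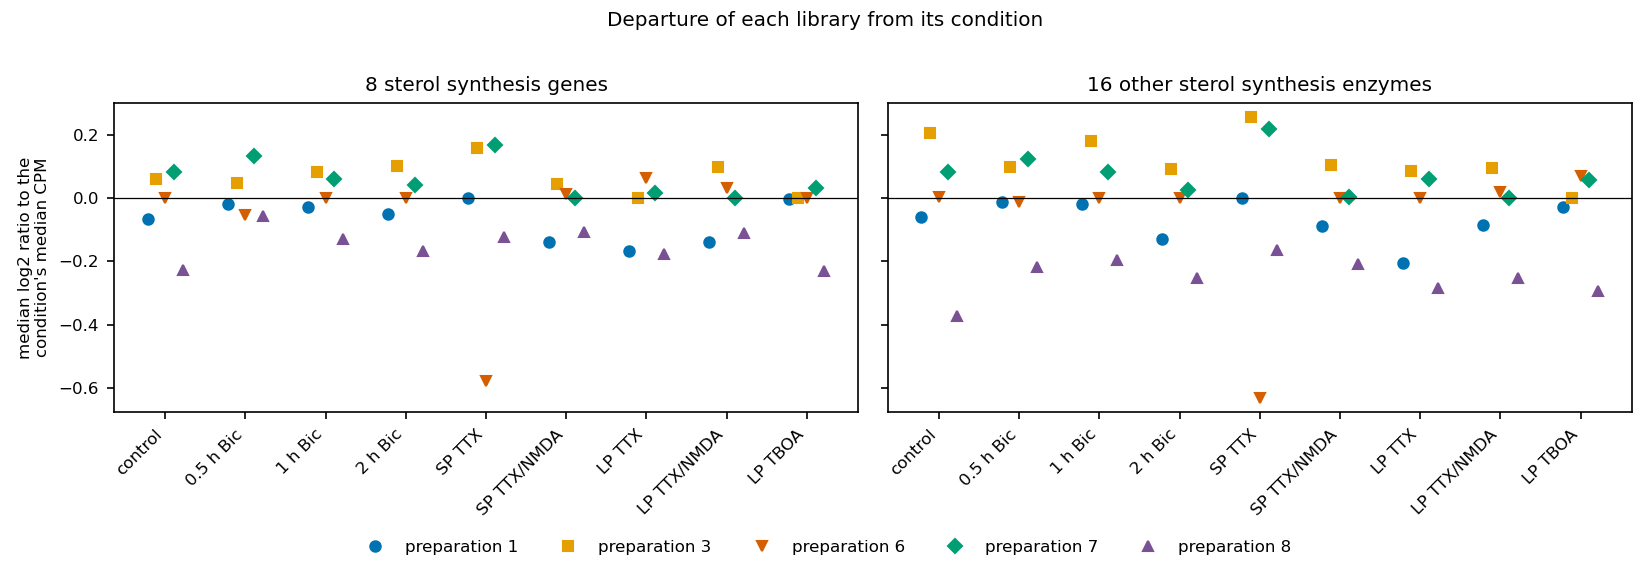
Median log2 ratio of each library to the median of its condition, for the 8 members and for the 16 other sterol synthesis enzymes, with 1 point per library, grouped by condition. The SP TTX library of preparation 6 lies at −0.58 and −0.63, below the other 44 libraries.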

How the data were processed

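Total RNA of 45 cultures, 9 conditions from each of 5 preparations, was sequenced from stranded poly-A libraries, single-end. According to the study's methods, reads were demultiplexed with bcl2fastq (2.20.0.422), aligned with STAR (2.5.4b) to GRCm38 with the Ensembl annotation and counted per gene on the sense strand with featureCounts (1.6.5), without multi-mapping reads or reads on more than a single gene. The authors deposited these raw counts, whole numbers per gene and library, without normalization. Reads of near-identical copies of a gene are thus not counted.

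From these counts, groups taken from the sample labels were compared 2 at a time with edgeR (4.0.16, R 4.3.3): TMM scaling, all genes with at least 1 read in the libraries compared, quasi-likelihood test, two-sided, Benjamini-Hochberg adjustment over all genes tested, threshold 0.05. SE is the standard error of the log2 fold change. Differences between protocols were contrasts over 20 libraries. CPM values are counts scaled by TMM to a common library size, and correlations used log2 CPM with a prior count of 2. RPKM divides CPM by the summed length of all exons. Because the labels give the preparation, same-numbered libraries are paired: their deviations from condition means correlated at 0.43 on average over 13592 expressed genes, against −0.11 between preparations. The main fit had no block, and the study's methods do not mention one. A fit with the preparation as a block over genes passing filterByExpr is given where it changes a call. In the main fit, p-values measure the spread between the libraries of a condition, each from a different preparation. With the block, they measure the spread that remains once the preparation is taken out. Other alternatives were DESeq2 (1.42.0), its size factors (RLE), filterByExpr, 1 fit over all 45 libraries and leaving out each preparation, and, chosen after the data were seen, leaving out single libraries. Scripts were tested on simulated data. The members and gene lists were chosen with earlier results of these data known, and the list genes named were up to 3 with the largest called change per list and main comparison, plus Srebf1, Scap, Insig2, Mir33, Cyp46a1 and Abca1. A few further called list genes were named after their values were seen. The values of some list genes are not reported here.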

Additional observations from a re-analysis of the deposited data

Results flagged for a closer look

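Among 72 sets of 5 libraries (8 genes in 9 conditions), 4 held a library whose gap to the nearest of the others, divided by the range of the set, was above Dixon's 95% critical value of 0.71 for 5 samples. Chance flags about 1 in 20 such sets. Srebf2 in SP TTX had 409.4 CPM in preparation 6, next to 486 CPM in the nearest library (ratio 0.761). Fdft1 in the same library had 207.9 CPM, next to 270.5 CPM (ratio 0.751). Srebf2 in LP TTX had 448.4 CPM in preparation 8, next to 494 CPM (ratio 0.883), while the other 4 libraries lay within 494 to 499.7 CPM. Insig1 in LP TBOA had 185.4 CPM in preparation 8, next to 233 CPM (ratio 0.830). Each of the 4 was the lowest value of its set.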

How the results depend on the processing

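No member that passed its test reversed direction under any alternative run. The same held for the list genes named by the rule of up to 3 per list and main comparison. List genes named after their values were seen, and the SP total values given for list genes, were not put through these runs. The 5 members called lower in the LP active effect were 5 under DESeq2, RLE scaling, filterByExpr and the fit over all libraries, 7 with the preparation as a block, and 5 to 6 when each preparation was left out. The other counts of members moved as follows. With the preparation as a replicate block, the counts higher were 1 in 1 h Bic against control, 2 in 2 h Bic against control, 2 in 2 h against 1 h Bic, 1 in the LP passive effect, 1 in TBOA against LP TTX and 2 in TBOA against control. With the block the counts lower were 1 in the SP active effect, 6 in the SP total effect, 3 in the LP passive effect, 1 in TBOA against LP TTX, 1 in SP TTX/NMDA against control, 1 in LP TTX against control and 4 in the difference of the active effects. One fit over all 45 libraries gave 0 in 2 h Bic against control, 0 in 2 h against 1 h Bic, 4 lower in TTX/NMDA against TBOA, 1 higher in LP TTX against control and 1 lower in the difference of the active effects. DESeq2 gave 2 lower in the SP total effect, 1 lower in SP TTX/NMDA against control, 1 higher in LP TTX against control and 1 lower in the difference of the active effects, filterByExpr gave 2, 0, 1 and 1 there, and RLE scaling 2 in the SP total effect. Leaving out each preparation in turn gave 0 to 1 higher in 2 h Bic against control, 0 to 1 lower in the SP active effect, 1 to 4 lower in the SP total effect, 0 to 1 higher in the LP passive effect, 0 to 1 lower in TBOA against LP TTX, 5 to 7 lower in TTX/NMDA against TBOA, 1 to 2 higher in LP TTX against control, 2 to 5 lower in LP TTX/NMDA against control, 0 to 1 higher in TBOA against control and 0 to 1 lower in the difference of the active effects. Without the SP TTX library of preparation 6, 2 were lower in the SP active effect. Without the control library of preparation 3, 1 (Srebf2) was lower in SP TTX/NMDA against control and 2 were higher in TBOA against control. Leaving out the TBOA library of preparation 6 moved no count beyond 1.5 times. Of the 10 genes most like the members, 7 were lipid list genes, as without centring, against 4 by 9 condition means and 3 without SP TTX of preparation 6. The causes of these moves were not tested. RLE scaling moved the median of all genes by less than 0.1 in every comparison, and beyond the members named here and beside the results above, the block changed no call of a member.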
